A study of Homo sapiens with 16 samples.

Results

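The genes described here are 10 zinc-handling genes, taken by name from a table of 60642 gene symbols: the metallothioneins MT2A, MT1E, MT1F and MT1X, the zinc-sensing factor MTF1, the zinc importers SLC39A1, SLC39A6 and SLC39A7, and the exporters SLC30A1 and SLC30A4. All 10 had a row, 9 passed the filter on low values (1 TPM reached in 2 or more libraries), and MT1E did not. TPM gives a gene's share of the transcripts of a library, corrected for transcript length. RNA was measured in LNCaP, 1 human prostate cancer cell line that grows with androgen, in 16 libraries of 8 treatment groups with 2 biological replicates each. Every group, controls included, was grown for 72 h with 5% fetal bovine serum and then for 48 h with 5% charcoal-stripped serum, which is poor in androgen. VEH cells then received ethanol and DMSO for 48 h, and DHT cells 10 nM of the androgen dihydrotestosterone. BIC.VEH, ENZ.VEH and APA.VEH cells received 10 µM of the antiandrogens (called antagonists here) bicalutamide, enzalutamide or apalutamide without DHT, and BIC.DHT, ENZ.DHT and APA.DHT cells the same antagonists together with 10 nM DHT.

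Free zinc in the cytosol is held at very low levels by proteins with separate tasks. ZIP transporters (the SLC39 genes) bring zinc into the cytosol from outside or from organelles, ZnT transporters (the SLC30 genes) move it out, and metallothioneins bind what is there in clusters of cysteine thiolates. MTF1 senses zinc and binds metal response elements in the promoters of metallothionein genes and of SLC30A1. Prostate epithelium is known for storing far more zinc than most tissues, and prostate carcinoma for holding less of it.

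The 4 metallothioneins lie within 75.61 kb of chromosome 16 (GRCh38.p14, 56608584 to 56684196), and their coding sequences are shown because values of near-identical genes can be mixed in counting. Each is 186 bases long and codes for 61 residues, 20 of them cysteine. Capitals mark bases that differ from MT2A in the GENCODE reference sequences:
MT2A: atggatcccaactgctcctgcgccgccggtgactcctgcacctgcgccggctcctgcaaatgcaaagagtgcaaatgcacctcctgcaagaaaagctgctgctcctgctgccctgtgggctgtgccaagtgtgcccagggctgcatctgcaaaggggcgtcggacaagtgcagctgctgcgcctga
MT1E: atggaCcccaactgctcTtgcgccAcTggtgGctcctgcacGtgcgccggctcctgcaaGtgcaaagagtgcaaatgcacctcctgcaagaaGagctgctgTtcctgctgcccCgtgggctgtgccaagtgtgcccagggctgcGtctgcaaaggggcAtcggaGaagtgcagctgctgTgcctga
MT1F: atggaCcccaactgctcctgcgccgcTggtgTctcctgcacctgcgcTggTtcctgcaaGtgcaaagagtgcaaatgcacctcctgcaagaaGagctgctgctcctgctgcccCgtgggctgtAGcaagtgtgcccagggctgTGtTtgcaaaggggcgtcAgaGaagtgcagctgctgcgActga
MT1X: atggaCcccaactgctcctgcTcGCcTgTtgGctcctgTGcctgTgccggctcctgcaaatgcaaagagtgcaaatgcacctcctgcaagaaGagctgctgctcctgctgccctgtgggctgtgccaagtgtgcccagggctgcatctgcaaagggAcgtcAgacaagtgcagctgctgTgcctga

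MT1E and MT1X differed from MT2A at 14 bases each (92.5% identity) and MT1F at 16 (91.4%). Identity between MT1F and MT1X was 88.7%. No stretch of 125 bases, the read length, was shared by transcripts of MT2A, MT1E or MT1F with another gene. Of the 280 such stretches of the MT1X transcript, 42 (15%) were shared with the gene ENSG00000259827, so that some reads of MT1X could be assigned to either.

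RefSeq promoter windows matched 8 of the 10 genes, with 9 windows in all, since SLC39A1 had 2. MT1E and MT1F had none. The 250 bases before the start site (GRCh38.p14, written 5′ to 3′ on the strand of the gene) were searched on both strands for the core of the metal response element, TGCACNC or TGCGCNC, and matches are in capitals. The windows of MT2A, MT1X and SLC30A1 are shown because MTF1 is known to act on these genes, and that of SLC39A7 because it was the gene most often called below:
MT2A, chr16:56608334-56608583, plus strand: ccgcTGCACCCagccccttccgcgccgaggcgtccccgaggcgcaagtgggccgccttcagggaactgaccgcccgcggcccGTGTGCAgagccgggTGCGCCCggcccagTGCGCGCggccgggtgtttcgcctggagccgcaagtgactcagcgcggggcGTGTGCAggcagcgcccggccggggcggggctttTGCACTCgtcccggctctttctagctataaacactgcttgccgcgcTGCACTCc
MT1X, chr16:56682220-56682469, plus strand: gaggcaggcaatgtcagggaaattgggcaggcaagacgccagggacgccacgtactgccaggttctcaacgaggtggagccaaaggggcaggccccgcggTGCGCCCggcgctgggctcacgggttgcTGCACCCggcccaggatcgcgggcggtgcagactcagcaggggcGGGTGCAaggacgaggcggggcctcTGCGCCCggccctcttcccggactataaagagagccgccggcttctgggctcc
SLC30A1, chr1:211579162-211579411, minus strand: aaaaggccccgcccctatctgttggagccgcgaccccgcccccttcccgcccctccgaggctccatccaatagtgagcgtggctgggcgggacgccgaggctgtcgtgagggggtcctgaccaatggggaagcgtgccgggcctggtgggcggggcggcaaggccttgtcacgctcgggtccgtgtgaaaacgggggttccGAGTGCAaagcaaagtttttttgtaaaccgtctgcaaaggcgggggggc
SLC39A7, chr6:33200617-33200866, plus strand: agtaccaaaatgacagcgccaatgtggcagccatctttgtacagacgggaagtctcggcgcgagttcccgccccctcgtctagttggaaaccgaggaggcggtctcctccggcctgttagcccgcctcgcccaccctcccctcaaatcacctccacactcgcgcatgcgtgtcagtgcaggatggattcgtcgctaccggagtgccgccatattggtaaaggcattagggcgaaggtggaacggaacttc

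The window of MT2A held 7 matches, which did not overlap each other, and that of MT1X held 4. SLC30A1, SLC30A4, SLC39A6 and 1 of the windows of SLC39A1 held 1 match each, and SLC39A7, MTF1 and the other window of SLC39A1 held 0. Among 35116 windows of all genes, 24.8% held at least 1 match, 0.37% at least 4 and 0.0313% at least 7. The androgen response half-site TGTTCT, searched on both strands, occurred in 1 of the 9 windows, a window of SLC39A1, against 12.4% of all windows. A match describes these letters and is not a binding site shown by these data.

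The libraries carried luminal markers of LNCaP. Summed TPM of HOXB13, KRT8, KRT18 and EPCAM ran from 1268 to 2120, and that of KRT5, KRT14 and TP63, the basal markers, did not exceed 1.75. Of the 4 stromal markers 3 stayed below a TPM of 1 in every library, and COL1A1 carried nearly all of their summed TPM of 11.4 to 32.9. KLK3, which encodes prostate-specific antigen and is a classic androgen-induced gene, stood at 53.0 and 24.0 TPM in VEH and at 4102 and 2422 in DHT. FKBP5, another such gene, stood at 11.99 and 13.5 TPM in VEH and at 81.4 and 92.8 in DHT. Replicate 1 libraries differed from replicate 2 libraries in all groups. MKI67, made in dividing cells, was lower in replicate 1 (log2 difference -1.70, SE 0.15, adjusted p = 1.69e-05, limma). Replicate 1 of ENZ.DHT and of APA.DHT also stood apart for members, at 0.619 to 0.735 times replicate 2 for MTF1, SLC39A6, SLC30A1 and SLC30A4. Other genes differed there too. In ENZ.DHT the zinc gene SLC30A9 stood at 42.3 and 65.5 TPM, and the copper gene CCS at 106 and 72.1. The share of all genes is not given. Members called for ENZ.DHT or APA.DHT against DHT, with or without the replicate number in the fit, are also given by replicate 2 alone. That setting compares the lone library with both DHT libraries, without pairing the replicates. It was chosen after the values were seen, so its values for these members carry no test.

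Metallothioneins varied most of the members, with highest libraries at 5.46 (MT2A), 3.58 (MT1X) and 3.29 times (MT1F) the lowest, against at most 2.58 times for the others. Each was higher in replicate 1 than in replicate 2 of every group. MT2A, the main metallothionein of most human tissues, stood at 201 and 129 TPM in VEH (replicates 1 and 2) and at 243 and 215 in DHT. It stood at 291 and 118 TPM in BIC.VEH, 646 and 160 in ENZ.VEH, and 268 and 134 in APA.VEH. With DHT added, MT2A stood at 237 and 128 TPM in BIC.DHT, 416 and 138 in ENZ.DHT, and 269 and 141 in APA.DHT. Replicate 1 exceeded replicate 2 by 1.13 times in DHT and by 4.03 times in ENZ.VEH. Both DHT libraries lay above both VEH libraries, whereas the DHT range overlapped that of each antagonist group.

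**Figure D1:**
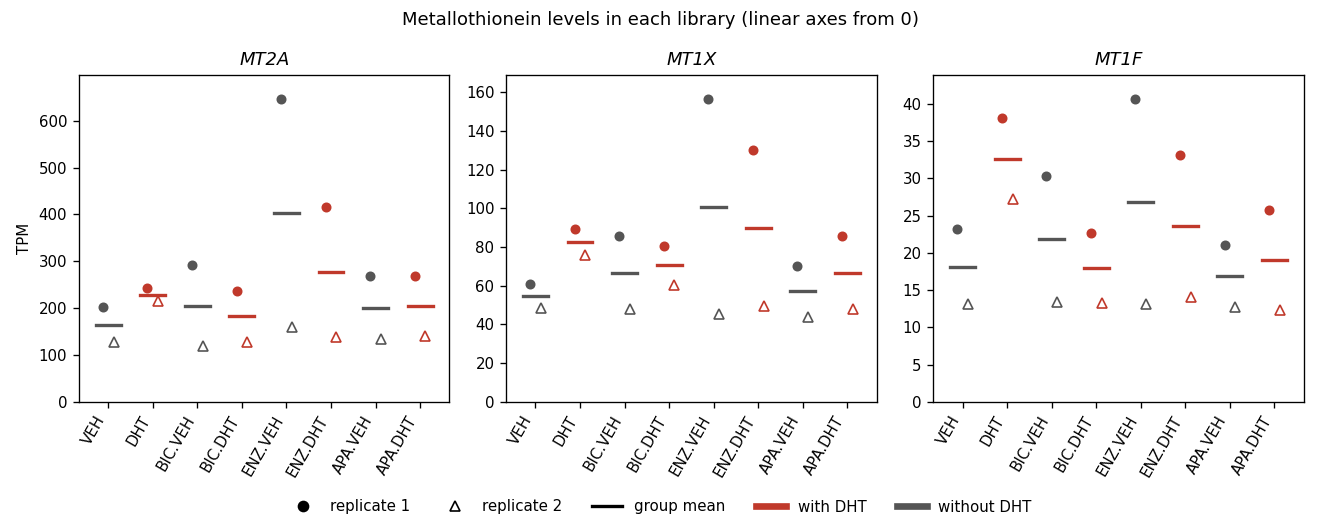
TPM of MT2A, MT1X and MT1F in each of 16 libraries, on linear axes from 0, with filled circles for replicate 1, open triangles for replicate 2 and bars for the group mean. Circles lie above triangles in 8 of 8 groups for each gene, with the widest gap for MT2A in ENZ.VEH, at 646 and 160 TPM.

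MT1X showed the same order of replicates. Its TPM was 61.0 and 48.7 in VEH, 89.6 and 75.7 in DHT, 85.8 and 47.8 in BIC.VEH and 80.8 and 60.5 in BIC.DHT. The values were 156 and 45.4 TPM in ENZ.VEH, 130 and 49.6 in ENZ.DHT, 70.4 and 43.7 in APA.VEH and 85.6 and 47.9 in APA.DHT. Replicate 2 of DHT, at 75.7 TPM, exceeded every other replicate 2 library, the next being BIC.DHT at 60.5. MT1F, a less abundant member, stood at 23.1 and 13.1 TPM in VEH, 38.1 and 27.2 in DHT, 30.3 and 13.5 in BIC.VEH and 22.7 and 13.2 in BIC.DHT. It stood at 40.7 and 13.1 TPM in ENZ.VEH, 33.1 and 14.1 in ENZ.DHT, 21.0 and 12.7 in APA.VEH and 25.7 and 12.4 in APA.DHT. In replicate 2 the 7 groups other than DHT lay between 12.4 and 14.1 TPM, against 27.2 in DHT. MT1E was listed at 0 in 16 of 16 libraries, and no fold is given for it.

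Added over the members, metallothionein RNA ran from 180 TPM (BIC.VEH replicate 2) to 843 TPM (ENZ.VEH replicate 1). MT2A made up 63.4% to 76.6% of that sum, MT1X 18.5% to 30.01% and MT1F 4.82% to 10.3%. The order of MT2A over MT1X over MT1F held in every library. The mean sum was 238 TPM in VEH and 344 in DHT, and 285 and 425 after the mitochondrial genes had been left out and the rest rescaled. In bulk RNA, fewer cells making a transcript and less of it per cell cannot be told apart.

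MTF1 was a low-abundance gene, with 4.38 to 10.1 TPM. The DHT libraries were the highest, at 10.1 and 9.39 TPM, against 7.97 and 6.70 in VEH and 6.06 to 8.52 in the groups with an antagonist alone. It stood at 7.37 and 6.87 TPM in BIC.DHT, 4.38 and 6.47 in ENZ.DHT and 4.75 and 6.78 in APA.DHT. The 2 lowest values were the libraries named above, replicate 1 of ENZ.DHT and of APA.DHT.

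Among the importers, SLC39A7 (ZIP7), which releases zinc from the endoplasmic reticulum and Golgi into the cytosol, separated the DHT group from all others. Its TPM was 124 and 92.6 in VEH and 229 and 164 in DHT. The other groups gave 111 and 93.1 TPM in BIC.VEH, 120 and 101 in BIC.DHT, 127 and 88.7 in ENZ.VEH, 102 and 93.7 in ENZ.DHT, 116 and 92.0 in APA.VEH and 108 and 97.9 in APA.DHT. Both DHT libraries exceeded the other 14 libraries, whose ranges overlapped between all groups. SLC39A7 in DHT was 1.81 times VEH by the group means (log2 fold change 0.85, SE 0.22, adjusted p = 0.0332, limma), with 1.84 times in replicate 1 and 1.77 times in replicate 2. The adjusted p was 0.000268 with the replicate number as a term of the fit, called the blocked fit here.

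SLC39A6 (ZIP6 or LIV-1), an importer of the cell surface, was also highest in DHT. The TPM was 79.0 and 82.2 in VEH, 110 and 129 in DHT, 96.2 and 100 in BIC.VEH and 94.7 and 105 in BIC.DHT. It was 71.4 and 80.5 TPM in ENZ.VEH, 56.1 and 89.4 in ENZ.DHT, 76.6 and 79.9 in APA.VEH and 53.0 and 85.6 in APA.DHT. The DHT group lay above the other 14 libraries. BIC.VEH and BIC.DHT lay above VEH without overlap, and replicate 1 of ENZ.DHT and of APA.DHT gave the 2 lowest values. DHT against VEH gave a log2 fold change of 0.56 (SE 0.23, adjusted p = 0.158, limma), with an adjusted p of 0.0288 in the blocked fit and 0.0426 with median-ratio scaling.

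SLC39A1 (ZIP1), regarded as a main importer of zinc into prostate cells, varied least of the importers, from 60.6 to 95.5 TPM. It stood at 77.3 and 63.9 TPM in VEH and at 95.5 and 79.4 in DHT, with the lower DHT library just above the higher VEH library. The antagonist groups ran from 61.1 to 80.2 TPM without DHT and from 60.6 to 72.8 with DHT. The log2 fold change of DHT against VEH was 0.30 (SE 0.17), and its adjusted p missed the threshold without (0.289) and with (0.0803) the block. SLC39A1 overlaps CREB3L4 on the opposite strand. CREB3L4 stood at 90.2 and 92.9 TPM in VEH and 118 and 143 in DHT, and its part in the values of SLC39A1 was not tested.

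**Figure D2:**
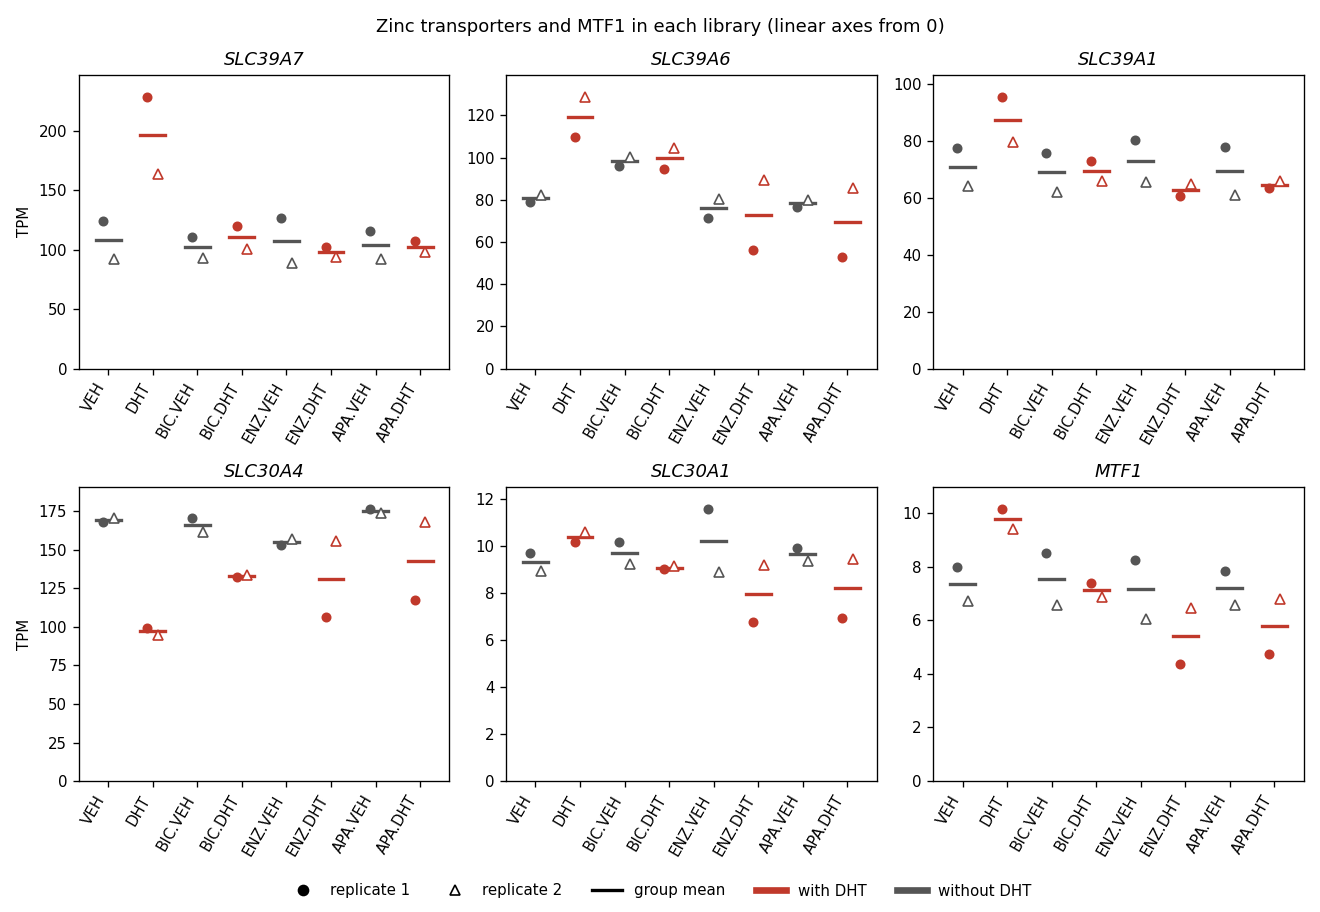
TPM of 5 zinc transporters and MTF1 in each of 16 libraries, on linear axes from 0, with filled circles for replicate 1, open triangles for replicate 2, bars for the group mean and red for groups with DHT. SLC39A7 is highest in DHT, at 229 and 164 TPM, where SLC30A4 is lowest, at 99.1 and 94.9 TPM.

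SLC30A4 (ZnT4), which loads zinc into vesicles, was the one member that fell with DHT. The values were 168 and 170 TPM in VEH, 99.1 and 94.9 in DHT, 171 and 161 in BIC.VEH and 132 and 134 in BIC.DHT. They were 153 and 157 TPM in ENZ.VEH, 106 and 156 in ENZ.DHT, 176 and 174 in APA.VEH and 118 and 168 in APA.DHT. Both DHT libraries lay below the other 14. The 4 groups without DHT stood at 153 to 176 TPM, and BIC.DHT stood between them and DHT. In ENZ.DHT and APA.DHT, replicate 1 lay between DHT and BIC.DHT and replicate 2 within the range of the groups without DHT. DHT was 0.573 times VEH by the means (log2 fold change -0.80, SE 0.18, adjusted p = 0.0179, limma). Annotated genes overlap SLC30A4, among them HMGN2P46, which stood at 18.2 and 19.3 TPM in VEH and 31.8 and 37.3 in DHT, in the opposite direction to SLC30A4.

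SLC30A1 (ZnT1), the exporter of the cell surface and a known target of MTF1, ranged from 6.76 to 11.6 TPM. It stood at 9.72 and 8.96 TPM in VEH and at 10.2 and 10.6 in DHT, and the highest value, 11.6, was replicate 1 of ENZ.VEH, the library with most metallothionein RNA. The log2 fold change of DHT against VEH was 0.14 (95% interval -0.26 to 0.55, adjusted p = 0.676, limma). SLC30A4 RNA was more abundant than SLC30A1 RNA in every library, 17.3 and 19.0 times in VEH and 9.71 and 8.94 times in DHT. SLC39A7 stood at 0.739 and 0.543 times SLC30A4 in VEH and at 2.31 and 1.73 times in DHT. In the other 12 libraries that ratio stayed below 1.

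Counted together, 2 of the 9 tested members passed the threshold (adjusted p under 0.05) for DHT against VEH, SLC39A7 higher and SLC30A4 lower, where 10.3% of 16636 genes did (3.63% higher and 6.64% lower). The blocked fit called 4, with MT1F (log2 fold change 0.85, adjusted p = 0.0132) and SLC39A6 added, against 27.4% of all genes. Groups did not overlap for 9 of 9 members, 8 higher and 1 lower in DHT, against 56.5% of all genes. The median log2 fold change was 0.50 over the members and -0.10 over all genes. MT2A and MT1X had log2 fold changes of 0.50 (95% interval -1.07 to 2.08) and 0.59 (-0.67 to 1.84), intervals that left room for a fall as well as for a large rise. MTF1 had 0.37 (-0.11 to 0.86). Some markers moved with DHT too. COL1A1, the stromal collagen gene, stood at 32.6 and 25.9 TPM in VEH and 11.4 and 15.6 in DHT (adjusted p = 0.00357, limma). Of the luminal genes, KRT18 stood at 573 and 515 TPM in VEH and 908 and 794 in DHT (adjusted p = 0.00528). KRT8 was also higher (log2 fold change 0.33, adjusted p = 0.165), while HOXB13 (-0.49, 0.107) and EPCAM (-0.17, 0.735) were lower. The basal gene KRT14 stood at 0.03 and 0.05 TPM in VEH and 1.68 and 1.59 in DHT (adjusted p = 0.00394). MKI67 stood at 2.18 and 9.28 TPM in VEH and 11.7 and 24.4 in DHT (adjusted p = 0.365). Their part in the members' change was not tested. With 2 libraries a group, the calls rested on each library. SLC30A4 was not called without any 1 of the 4 libraries (adjusted p 0.0767 to 0.114). SLC39A7 was called without DHT replicate 2 (0.0458) but not without VEH replicate 1 (0.055), VEH replicate 2 (0.199) or DHT replicate 1 (0.215).

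**Figure D3:**
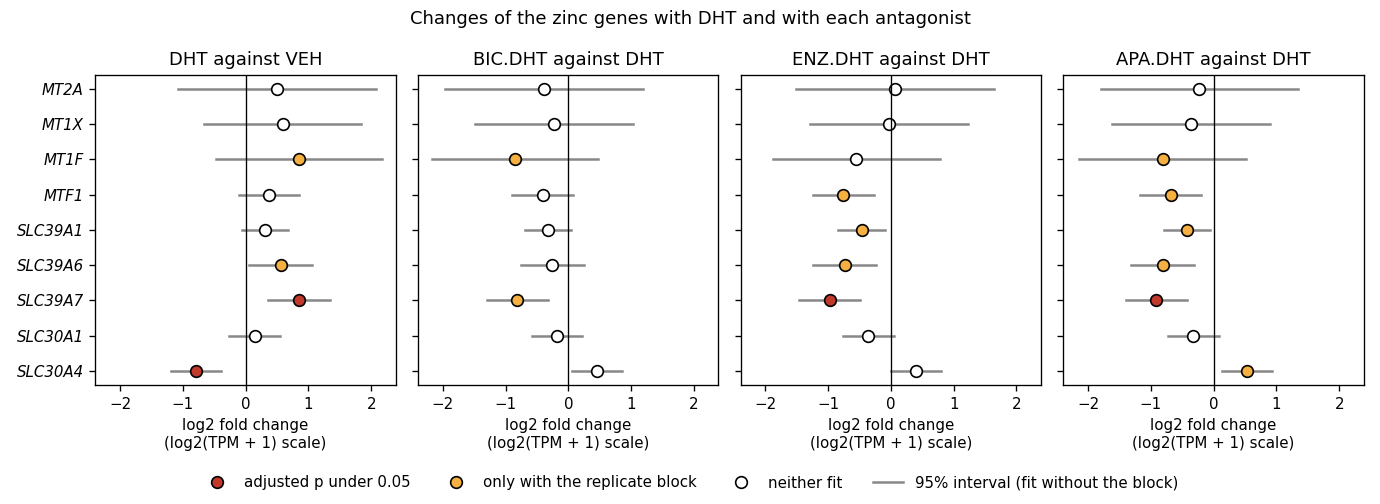
Log2 fold changes on the log2(TPM + 1) scale, with 95% intervals, of 9 zinc genes in DHT against VEH and in each antagonist with DHT against DHT; red marks an adjusted p under 0.05, orange the same only in the blocked fit, white neither. SLC39A7 moves from 0.85 with DHT to -0.81, -0.98 and -0.91 when BIC, ENZ or APA is added, and SLC30A4 from -0.80 to 0.45, 0.40 and 0.53.

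Adding an antagonist to DHT asks whether the DHT values hold in its presence. The contrasts share the DHT libraries with each other and with DHT against VEH, so a high or low DHT library enters all of them, and the values stand side by side with no test of their likeness. SLC39A7 was lower with each antagonist. Its level in BIC.DHT was 0.562 times DHT (log2 fold change -0.81, SE 0.22, adjusted p = 0.0824, limma, and 0.000983 in the blocked fit). The level was 0.498 times DHT in ENZ.DHT (-0.98, adjusted p = 0.0199) and 0.522 times in APA.DHT (-0.91, adjusted p = 0.0288). When ENZ.DHT and APA.DHT were represented by replicate 2 alone, against both DHT libraries, the log2 fold changes were -1.04 and -0.98. SLC39A7 was higher in replicate 1, and that fit does not pair the replicates. Within replicate 2 the log2 differences from DHT were -0.80 and -0.74, and within replicate 1 -1.16 and -1.08. Without DHT replicate 1 the adjusted p was 0.14 for ENZ and 0.182 for APA, and without replicate 2 of ENZ.DHT or of APA.DHT it was 0.0609 and 0.0828.

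SLC39A7 was the only member called against DHT without the block. No member passed for BIC, where 3.13% of all genes did (2 members and 2513 genes had an unadjusted p under 0.05), and 1 of 9 passed for each of ENZ (9.65% of all genes) and APA (8.36%). The blocked fit called 2 of 9 for BIC (SLC39A7 and MT1F), 4 for ENZ and 6 for APA, against 13.3%, 29.2% and 27.3% of all genes. SLC39A6 was at 0.835 times DHT in BIC.DHT, 0.610 in ENZ.DHT and 0.581 in APA.DHT, with blocked adjusted p of 0.356, 0.00728 and 0.00478. By replicate 2 alone its log2 fold changes were -0.41 for ENZ and -0.47 for APA, against -0.74 and -0.81 with both replicates. Within replicate 2 the SLC39A6 differences were -0.52 and -0.59. The libraries left out were singled out in part by their low SLC39A6 and MTF1, so no test is drawn from that setting. MTF1 had log2 fold changes of -0.41, -0.76 and -0.69 (blocked adjusted p 0.245, 0.0203 and 0.0342). By replicate 2 alone MTF1 gave -0.53 for ENZ and -0.47 for APA, and within replicate 2 -0.48 and -0.42. SLC39A1 had -0.33, -0.47 and -0.43 (blocked adjusted p 0.0984, 0.0137 and 0.0223). By replicate 2 alone SLC39A1 gave -0.42 for ENZ and -0.40 for APA, and within replicate 2 -0.29 and -0.27.

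SLC30A4 was higher than DHT with each antagonist, without overlap of the groups. The log2 fold changes were 0.45 for BIC, 0.40 for ENZ and 0.53 for APA, with adjusted p of 0.261, 0.184 and 0.0993 (limma) and of 0.0921, 0.0801 and 0.0314 in the blocked fit. By replicate 2 alone ENZ gave 0.68 and APA 0.78. That setting was chosen after the values were seen. It leaves out the libraries where SLC30A4 was lower, at 0.683 and 0.700 times replicate 2, so no test is drawn from it. Groups that did not overlap were found for 7 of 9 members with BIC (47% of all genes), 6 with ENZ (50.9%) and 7 with APA (47.9%). The median log2 fold change of the members was -0.33, -0.47 and -0.43, beside 0.00, -0.01 and 0 over all genes.

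Replicates went apart against DHT for MT2A and MT1X with ENZ and for MT2A with APA. MT2A in ENZ.DHT was 1.71 times DHT in replicate 1 and 0.640 times in replicate 2, and in APA.DHT 1.11 and 0.656 times. In BIC.DHT the ratios were 0.98 and 0.594. MT1X gave 1.45 and 0.655 times in ENZ.DHT, and was below DHT in both replicates of BIC.DHT (0.902 and 0.798 times) and of APA.DHT (0.956 and 0.633). MT1F was below DHT in both replicates with all 3 antagonists, with log2 fold changes of -0.85 for BIC, -0.55 for ENZ and -0.81 for APA (adjusted p 0.581, 0.587 and 0.434, and 0.0243, 0.0741 and 0.0169 in the blocked fit). By replicate 2 alone, against both DHT libraries, MT1F gave -1.14 for ENZ and -1.31 for APA, and within replicate 2 -0.91 and -1.08. The 95% intervals without the block were as wide as -1.51 to 1.64 for MT2A in ENZ.DHT.

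Without DHT, none of the 27 values of a member against VEH passed the threshold (every adjusted p was 1, limma, without and with the block). At an unadjusted p under 0.05 there were 0 without the block and 1 with it, MT2A with ENZ (0.012). Over all genes, 0%, 0% and 0.00601% passed for BIC, ENZ and APA, and 0.018%, 0% and 0.012% with the block. MTF1 and the transporters ran from -0.13 to 0.28 on the log2 scale, all within 95% limits of -0.59 and 0.79. The largest was SLC39A6 with BIC (0.28). Metallothionein values ran from -0.08 to 1.00, with limits of -1.41 and 2.57. The value of 1.00 was MT2A with ENZ, at 3.21 times VEH in replicate 1 and 1.25 times in replicate 2 (95% interval 0.27 to 1.72 in the blocked fit). It was -0.01 without replicate 1 of ENZ.VEH, when replicate 2 is set against both VEH libraries.

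DHT within an antagonist, against the same antagonist alone, gave 0 calls among 27 values without and with the block, and in both fits 0 with an unadjusted p under 0.05. The percentages over all genes were 0% for BIC, 0.00601% for ENZ and 0.00601% for APA, and with the block 0%, 0.00601% and 0.024%. Transporters and MTF1 ran from -0.35 to 0.11, within limits of -0.83 and 0.60. The lowest was MTF1 with ENZ, at -0.78 in replicate 1 and 0.08 in replicate 2. Both replicates had the same sign for 4 of the 9 members with BIC, 3 with ENZ and 3 with APA. SLC30A4 had -0.32 for BIC, -0.27 for ENZ and -0.32 for APA, against -0.80 for DHT without an antagonist. Within replicates 1 and 2, BIC gave -0.37 and -0.27, ENZ -0.52 and -0.01, and APA -0.58 and -0.05. The value for ENZ was 0.01 without replicate 1 of ENZ.DHT. Whether the response to DHT itself differed was tested as an interaction. For SLC39A7 the interaction was -0.74 with BIC, -0.96 with ENZ and -0.86 with APA, with adjusted p of 0.443, 0.191 and 0.255 (limma) and of 0.0176, 0.00346 and 0.0066 in the blocked fit. No other member passed in either fit, where 0.986%, 1.63% and 1.42% of all genes did without the block and 6.39%, 9.91% and 10.1% with it.

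Bicalutamide, enzalutamide and apalutamide are nonsteroidal. Enzalutamide and apalutamide share a thiohydantoin core, in which apalutamide carries a spiro-fused cyclobutane where enzalutamide has geminal methyl groups, and a pyridine where it has a benzene ring. Bicalutamide is an open-chain propanamide with a sulfone. All were given at 10 µM for 48 h, and the 3 pairs were compared with and without DHT, with p adjusted over all genes within each pair. No member passed the threshold in any pair (adjusted p of at least 0.93 with DHT and of 1 without, limma, and at least 0.276 in the blocked fit), and without the block 1 value, SLC39A6 in APA.DHT against BIC.DHT, had an unadjusted p under 0.05. With the block there were 2 such values with DHT, SLC39A6 in ENZ.DHT and in APA.DHT against BIC.DHT (0.0138 and 0.00646), and 4 without DHT, MT2A and SLC39A6 in ENZ.VEH against BIC.VEH (0.0359 and 0.048) and MT2A and MT1F in APA.VEH against ENZ.VEH (0.0416 and 0.0465). Of all genes, at most 0.012% passed for a pair without the block. The blocked fit called 0.0541% for APA.DHT against BIC.DHT, 0.0842% for APA.VEH against BIC.VEH and at most 0.012% for the other pairs. For APA.DHT against ENZ.DHT, transporters and MTF1 gave -0.07 to 0.13 on the log2 scale, within limits of -0.58 and 0.56. Against bicalutamide, the largest values among them were those of SLC39A6, with -0.48 for ENZ and -0.56 for APA in the presence of DHT (limits -0.99 and -1.06) and -0.37 and -0.32 without it. With DHT, ENZ and APA gave -0.74 and -0.825 within replicate 1, and -0.23 and -0.29 within replicate 2. For metallothioneins the limits without the block reached -2.34 and 2.36.

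The difference between the replicates was tested as a term of the blocked fit, after the values had been seen. MT2A was higher in replicate 1 by 1.06 on the log2 scale (SE 0.16, adjusted p = 0.000596, limma), MT1F by 0.94 (SE 0.11, 8.15e-05) and MT1X by 0.80 (SE 0.16, 0.00225). Smaller shifts passed for SLC39A7 (0.31, 0.00114), SLC39A1 (0.18, 0.0318) and SLC39A6 (-0.26, 0.0289), and none for MTF1, SLC30A1 or SLC30A4. That made 6 of 9 members against 40.2% of all genes. In 8 of 8 groups MT2A, MT1F, MT1X and SLC39A7 were higher and SLC39A6 lower in replicate 1, 5 of 9 members, against 28.2% of all genes with 1 direction throughout. Of 11363 protein-coding genes with a reference length, 59 (0.519%) rose as far as MT1X did. Transcripts of MT2A, MT1F and MT1X are short (401 to 425 bases), while that of MT1E, which was not tested, has 704. Among 135 tested genes of at most 500 bases the median shift was 0.02. Of these, 6 (4.44%) reached the shift of MT1X, and 4 of the 6 were metallothioneins. Without metallothioneins, 2 of 130 short genes (1.54%) did, against 0.484% of 11358 genes.

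**Figure D4:**
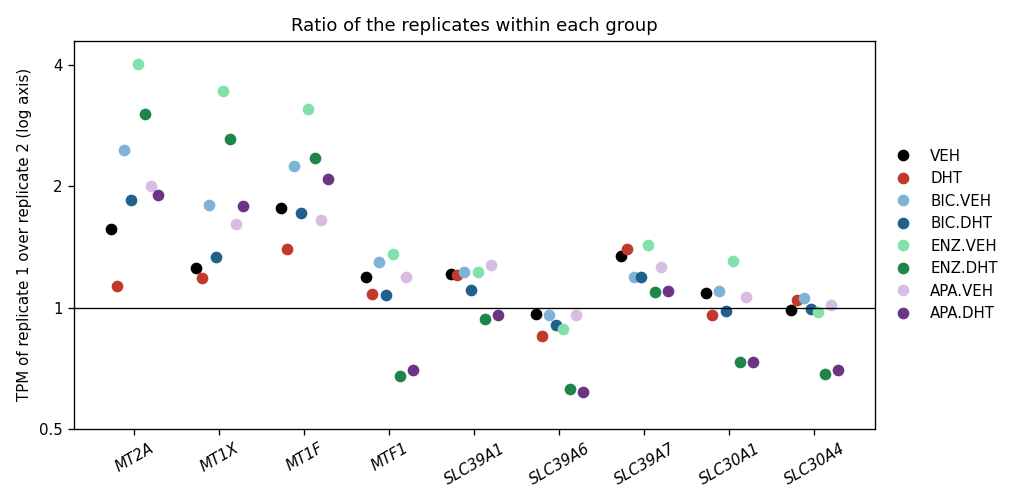
TPM of replicate 1 over that of replicate 2 for 9 zinc genes, on a log axis, with 1 point per treatment group and a line at 1. MT2A, MT1X and MT1F lie above 1 in every group, up to 4.03 for MT2A in ENZ.VEH, and MTF1, SLC39A6, SLC30A1 and SLC30A4 lie lowest in ENZ.DHT and APA.DHT.

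Other measures moved with the replicate. The dividing-cell markers MKI67, TOP2A and MCM2 summed to 12.8 to 59.2 TPM in replicate 1 and 46.4 to 114 in replicate 2. Of the 3 immune markers, 1 was listed at 0 in every library, and only CD68, a lysosomal gene also made outside macrophages, exceeded 1 TPM. The sum of the 3 was 2.27 to 12.1 TPM in replicate 1 and 0.93 to 1.81 in replicate 2. CD68 was highest, at 12.1 TPM, in ENZ.VEH replicate 1, which was also the library highest in MT2A and MT1X. Mitochondrial genes took 16.1% to 22.3% of TPM in replicate 1 and 14.7% to 17.0% in replicate 2. The part of these measures in the metallothionein values was not tested.

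Of 26 further zinc genes, 17 passed the filter, and 1 was called for DHT against VEH, against 10.3% of all genes. This was SLC39A2 (ZIP2), a low-abundance importer, at 1.90 and 1.47 TPM in VEH and 0.39 and 0.24 in DHT (log2 fold change -1.03, SE 0.20, adjusted p = 0.00816, limma). The blocked fit called 8 of the 17, 3 higher and 5 lower, against 27.4% of all genes. The median log2 fold change of the 17 was -0.03. SLC39A2 was higher than DHT in ENZ.DHT (1.20 and 2.13 TPM, log2 fold change 1.00, adjusted p = 0.011) and in APA.DHT (2.20 and 2.55 TPM, 1.36, 0.00218). In BIC.DHT it stood at 1.40 and 0.98 TPM (0.73, adjusted p = 0.0821, and 0.0306 in the blocked fit). MT3, a metallothionein first known from brain, passed for ENZ (1.89 and 1.42 TPM against 0.14 and 0.59 in DHT, log2 fold change 0.97, adjusted p = 0.0494). It stood at 1.64 and 1.51 TPM in APA.DHT (adjusted p = 0.0613, and 0.0255 in the blocked fit). By replicate 2 alone SLC39A2 gave 1.25 for ENZ and 1.44 for APA, and MT3 0.85 and 0.90. That setting was chosen after the values were seen and leaves out the lower SLC39A2 libraries, so no test is drawn from it.

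MT1G, a further metallothionein, was likewise higher in replicate 1. It stood at 68.6 and 35.3 TPM in VEH, 124 and 72.0 in DHT and 236 and 39.1 in ENZ.VEH, and its replicate shift was 1.56 (SE 0.18, adjusted p = 0.000101, limma). MT1A, MT1M and MT4 were listed at 0 in all libraries, as MT1E was, and MT1B and MT1H did not exceed 0.25 TPM. The 7 copper-handling genes, measured as a neighbouring metal system, gave 0 calls for DHT against VEH (2 had an unadjusted p under 0.05), against 10.3% of all genes. In the blocked fit 2 of the 7 were called, both higher, SLC31A2 (adjusted p = 0.0288) and COX17 (0.00205). That is near the 27.4% of all genes called in that fit. The median log2 fold change of the 7 was -0.07.

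Genes of most similar pattern were looked for among 11055 genes with a mean TPM of at least 5, by Pearson r of log2(TPM + 1) over 16 libraries, which share their treatment groups and replicate numbers. MT1F, the metallothionein among the 10 genes with the largest value for DHT against VEH, was followed most closely by GDF15, a stress-responsive cytokine (r = 0.97, 191 to 364 TPM in replicate 1 and 79.3 to 180 in replicate 2). FAM177A1 (0.96) and MT1G (0.96) came next. SLC39A7, the transporter with the largest such value, was followed by TMED9, which carries cargo between the endoplasmic reticulum and the Golgi (r = 0.98, 101 to 205 TPM). AMACR, a peroxisomal racemase used as a marker of prostate cancer (0.98), and the phospholipase gene PLA2G4F (0.97) were next.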

How the data were processed

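RNA of LNCaP cells was sequenced from stranded libraries selected for polyadenylated RNA, as paired reads of 125 bases. Per the submitters' processing notes and methods, the authors used FastQC 0.11.9, Trim Galore 0.6.5, STAR 2.7.2b on GRCh38 and RSEM 1.3.3, and deposited TPM per gene symbol for each library, with no pooling. TPM keeps no depth, so counting error is unknown, and column totals ran from 976190 to 983114. No column belonged to other samples (0 columns). RSEM divides by an effective length, which makes TPM of short transcripts such as metallothioneins depend on the fragment length, and whether counting used strand is not given in the sources used here.

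From the deposited TPM, limma 3.58.1 (R 4.3.3) was fitted with trend to log2(TPM + 1), with 8 group means over 16 libraries, and p was adjusted by Benjamini-Hochberg over the 16636 genes that reached 1 TPM in 2 or more libraries. Fold changes on this scale understate changes of low genes. Adding the replicate number as a term gave the blocked fit. The labels number the biological replicates, and deviations from group means correlated above 0.1 in 28 of 28 pairs of groups (0.204 to 0.635), so the numbers were taken as pairing the libraries. The labels do not say whether replicates came from separate thaws or days.

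The genes and lists were chosen with earlier results of these data known. Named beside the 10 genes were other zinc and copper genes called for DHT or for an antagonist with DHT, KLK3 and FKBP5, and 3 genes of most similar pattern for 1 metallothionein and 1 transporter; other genes named were chosen after their values were seen. Promoters were read from RefSeq windows and coding sequences from GENCODE by Python 3.11.15. Some luminal markers of the list are not reported here.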

Additional observations from a re-analysis of the deposited data

Results flagged for a closer look

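The response of SLC39A7 to DHT differed between cells without and with an antagonist by the interaction term of the blocked limma fit. The log2 difference was -0.74 with BIC (adjusted p = 0.0176), -0.96 with ENZ (0.00346) and -0.86 with APA (0.0066). SLC39A7 was higher with DHT in both replicates without an antagonist, by 1.84 and 1.77 times. Without the block the adjusted p was 0.443, 0.191 and 0.255. The 3 differences share the VEH and DHT libraries.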

How the results depend on the processing

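Across 573 repeats of a value or count under another setting, 496 kept direction and side of the threshold (or lay within 1.5 times a count), and 25 reversed. The count of members called for DHT against VEH was 2, and became 1 with no filter, 4 with the replicate block, 3 with median-ratio scaling, 3 by replicate 2 alone, 0 with only the compared groups in the fit, and 0 to 2 with a library left out. For BIC.DHT against DHT it was 0, and became 2 with the block and 1 when ENZ.DHT and APA.DHT were taken by replicate 2 alone, a setting chosen after seeing the data. For ENZ.DHT the count was 1, and became 4 with the block, 0 with only the compared groups, 3 with median-ratio scaling, 2 without mitochondrial genes, and 0 to 3 with a library left out (0 without DHT replicate 1 or ENZ.DHT replicate 1, 2 without ENZ.DHT replicate 2, 3 without either APA.DHT library). For APA.DHT it was 1, and became 0 with no filter, 6 with the block, 0 with only the compared groups, 4 with median-ratio scaling, 2 without mitochondrial genes, and 0 to 3 with a library left out (0 without DHT replicate 1, 3 without either ENZ.DHT library). The interactions gave 0 calls, and 3 with the block. The block changed no call of a member other than those given. Calls over all genes moved too. For DHT against VEH they were 1709, with 4559 with the block, 1888 with median-ratio scaling and 173 with only the compared groups. For ENZ.DHT and APA.DHT against DHT the block called 29.2% and 27.3% of all genes, against 9.65% and 8.36% without it. The shares under the other settings are not given for these contrasts, so the member counts there cannot be set against all genes. Median-ratio scaling moved the median of all genes from -0.10 to 0. The cause of these changes was not tested.

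Reversals concerned uncalled values. By replicate 2 alone, ENZ.DHT against DHT gave -0.73 for MT2A, and ENZ.DHT against ENZ.VEH 0.0061 for SLC30A4. With single libraries left out, SLC30A4 in the last contrast ran from -0.54 to 0.0061. Against DHT, MT2A ran from -0.83 to 0.052 in BIC.DHT, -0.73 to 0.86 in ENZ.DHT and -0.69 to 0.23 in APA.DHT, MT1X from -0.72 to 0.65 in ENZ.DHT and -0.77 to 0.055 in APA.DHT, and MT1F from -1.14 to 0.037 in ENZ.DHT. Against VEH, MT2A ran from -0.44 to 0.85 in BIC.VEH, -0.0070 to 2.00 in ENZ.VEH and -0.27 to 0.73 in APA.VEH. MT1X ran from -0.19 to 0.64, -0.26 to 1.504 and -0.31 to 0.36, and MT1F from -0.35 to 0.76, -0.39 to 1.18 and -0.47 to 0.30 in the same groups. A library left out sets 1 replicate number against both, without the block, so the difference between replicates enters these values. Within replicates 1 and 2, MT1F gave 0.38 and 0.04 in BIC.VEH against VEH, and -0.20 and -0.91 in ENZ.DHT against DHT. MT2A in ENZ.DHT against DHT did go apart, at 0.77 and -0.64. Depth is unknown, and 2 libraries a group limit precision.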
